A study of Mus musculus with 21 samples.

Results

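The miR-126 hairpin gives 2 mature miRNAs, miR-126-3p and miR-126-5p, and both were followed through the course of a kidney injury. They are the rows of that name among the 1125 mature miRNAs of the count table, and both passed the filter on low values that left 431 miRNAs for testing. The samples were whole kidneys of male BALB/c mice, aged 12 weeks, given folic acid at 250 mg/kg in 0.3 M sodium bicarbonate. Day 0 and days 1, 2, 3, 7, 14 and 28 after folic acid were sampled, with 3 small RNA libraries each and 21 in all. A high dose of folic acid injures the renal tubules and is used as a model of acute injury that passes into fibrosis. Whether the day 0 mice had an injection is not in the labels, and each later day has treated mice only, so folic acid, injection, vehicle and time cannot be told apart in any comparison with day 0. That each library is a different mouse is not stated either, and p-values measure only the spread of libraries, which may be technical.

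A miRNA is cut from a hairpin as a short duplex, and either strand of it (the 5p or the 3p arm) can be loaded into Argonaute to repress transcripts through its seed, the bases near its 5′ end. miR-126 lies in the gene of Egfl7, a protein secreted by endothelium, and it is known as an abundant miRNA of endothelial cells and also from platelets and blood stem cells. The 3p arm is known to repress Spred1 and Pik3r2, inhibitors of signalling downstream of VEGF, and the 5p arm to repress the Notch ligand Dlk1 in mouse endothelium. The kidney holds dense peritubular and glomerular capillaries, which are known to become sparse in many models of fibrosis. The table holds miRNAs and no transcripts of endothelial genes, so the endothelial source of the miR-126 reads could not be checked here.

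In RefSeq (build GRCm38.p6) the 73-base hairpin Mir126a lies on the plus strand at chr2:26591357-26591429. In the GENCODE annotation of GRCm38, 9 of the 19 transcripts of Egfl7 span it, in 1 of them an exon overlaps it, and in the others it is intronic. The hairpin is shown with its 3p arm in capitals, followed by the mature 3p arm with its seed (bases 2 to 8) in capitals, to show the precursor both members come from and where the 3p arm lies in it.
Mir126a hairpin: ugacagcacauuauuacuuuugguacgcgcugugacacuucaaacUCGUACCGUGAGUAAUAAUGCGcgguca
miR-126a-3p: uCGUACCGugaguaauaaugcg
RefSeq names the gene Mir126a, and the deposited table writes miR-126. Of both members, 1 mature sequence was matched in the RefSeq table, that of the 3p arm at chr2:26591402-26591423, and the miR-126-5p entry is named only. Of 1738 mature mouse sequences in that table, 1 held the seed of miR-126a-3p, which was miR-126a-3p itself. Folded with RNAfold, the hairpin had a minimum free energy of -31.2 kcal/mol, and 19 of the 22 bases of the 3p arm paired with bases 7 to 27 of the hairpin, on the 5p side. A second hairpin, Mir126b, is annotated on the opposite strand at chr2:26591363-26591420. Its mature arms have no row of their own among the miRNAs analysed here, and whether the authors' counting used strand is not given in the sources used here.

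The libraries held from 2875675 to 7110546 reads of miRNAs. Levels are CPM (a miRNA's reads scaled to a common library total), divided by a TMM factor that corrects for a shift of the bulk of miRNAs. The arms were read deeply: miR-126-3p had between 8118 and 16931 reads in a library and miR-126-5p between 26612 and 67204. Of the markers of other organs, the neuronal miR-124-3p had at most 1 read in a library and the liver miR-122-5p at most 8. The muscle miR-133a-3p was not near 0, with between 40 and 167 reads in a library. At day 0 it stood at 19.88 to 35.34 CPM before TMM scaling, beside 31.99 to 50.96 for the myeloid miR-223-3p. The muscle miR-1-3p had no row of that exact name.

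At day 0 the 5p arm was the more abundant one. It stood at 11098.8, 12312.3 and 9900.88 scaled CPM in the 3 libraries, and took rank 17 by mean CPM among 1125 miRNAs. The 3p arm stood at 3036.67, 3133.59 and 3345.19 scaled CPM and took rank 32. The library highest for one arm was not the highest for the other. Ligation of adapters in small RNA libraries favours some sequences, so reads of both arms do not translate directly into copies.

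miR-126-3p, the arm that represses Spred1, was lower than at day 0 from day 2 to day 14. On day 1 it stood at 2746.98, 2917.78 and 3034.16 scaled CPM. All 3 lay under the lowest day 0 library (3036.67), the highest of them only just. On day 2 it stood at 2153.07, 2260.78 and 2379.72 scaled CPM, the lowest mean of the course. All 3 day 2 libraries lay well below the day 0 range. On day 3 the libraries held 2225.94, 2668.39 and 2461.81 scaled CPM, and on day 7 they held 2430.39, 2414.96 and 2317.08. These again lay below day 0, and day 7 was the tighter group. On day 14 the libraries held 2820.22, 2750.94 and 2068.66 scaled CPM, so that replicate 3 stood far below the others. On day 28 they held 2981.84, 2949.72 and 2918.82 scaled CPM, close to each other and under all day 0 libraries by a small margin.

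In limma, fitted over all 21 libraries and 431 miRNAs with Benjamini-Hochberg adjustment, miR-126-3p fell by 0.49 on the log2(CPM + 1) scale by day 2, to 0.714 of its day 0 level (SE 0.10, adjusted p = 0.000674, lower in 3 of 3 libraries). It stood at -0.37 against day 0 on day 3 (SE 0.10, adjusted p = 0.0046), at -0.41 on day 7 (SE 0.10, adjusted p = 0.00219) and at -0.33 on day 14 (SE 0.10, adjusted p = 0.0134). Day 1 (-0.13, adjusted p = 0.376) and day 28 (-0.10, 95% interval -0.32 to 0.11, adjusted p = 0.551) did not pass, which does not show that the level had returned. miRNAs called lower made up 11.1% of those tested on day 1. Their share was 19.0% both for day 2 and for day 3, 22.7% for day 7, 17.9% for day 14 and 1.86% for day 28. A fall of this arm was therefore one of many on the days it was called. Leaving out day 3 replicate 1 ended the day 3 call (-0.28, adjusted p = 0.0589), and the day 14 call ended without day 14 replicate 3 (-0.20, adjusted p = 0.0871), which moved it by more than 1.5 times.

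miR-126-5p, the arm that represses Dlk1, took a similar course at a higher level. On day 1 it stood at 9524.01, 9555.7 and 9946.43 scaled CPM, and 1 library lay within the day 0 range. On day 2 it stood at 9035.84, 8973.7 and 8473.28 scaled CPM, on day 3 at 9009.88, 8972.29 and 8188.31, and on day 7 at 8649.24, 8679.94 and 8231.66. All 9 of these libraries lay below the lowest day 0 library. On day 14 it stood at 9951.3, 9899.12 and 7452.69 scaled CPM, with replicate 3 again the low one and replicate 1 within the day 0 range. On day 28 it stood at 11586, 12648.1 and 9917.67 scaled CPM, spread over the whole day 0 range.

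The 5p arm was also called lower, at -0.33 on day 2 (SE 0.11, limma adjusted p = 0.0213), at -0.34 on day 3 (SE 0.11, adjusted p = 0.0126), at -0.38 on day 7 (SE 0.11, adjusted p = 0.00679) and at -0.29 on day 14 (SE 0.11, adjusted p = 0.0353). The day 7 value is 0.770 of the day 0 level. Day 1 (-0.19, adjusted p = 0.203) and day 28 (0.03, 95% interval -0.20 to 0.26, adjusted p = 0.867) did not pass. These calls leaned on single libraries more than those of the 3p arm. Day 0 replicate 2 was the highest of its group, and without it the calls of day 2 (-0.25, adjusted p = 0.107), day 3 (-0.27, adjusted p = 0.0725) and day 14 (-0.22, adjusted p = 0.156) were lost. The day 2 call also ended without day 2 replicate 1 (-0.35, adjusted p = 0.0523) or replicate 3 (-0.30, adjusted p = 0.0962), and that of day 3 without day 3 replicate 3 (-0.28, adjusted p = 0.098). The day 14 call also ended without day 0 replicate 1 (-0.31, adjusted p = 0.0695) or day 14 replicate 3 (-0.17, adjusted p = 0.281). The day 7 call of either arm held without any single library of days 0 and 7.

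**Figure D1:**
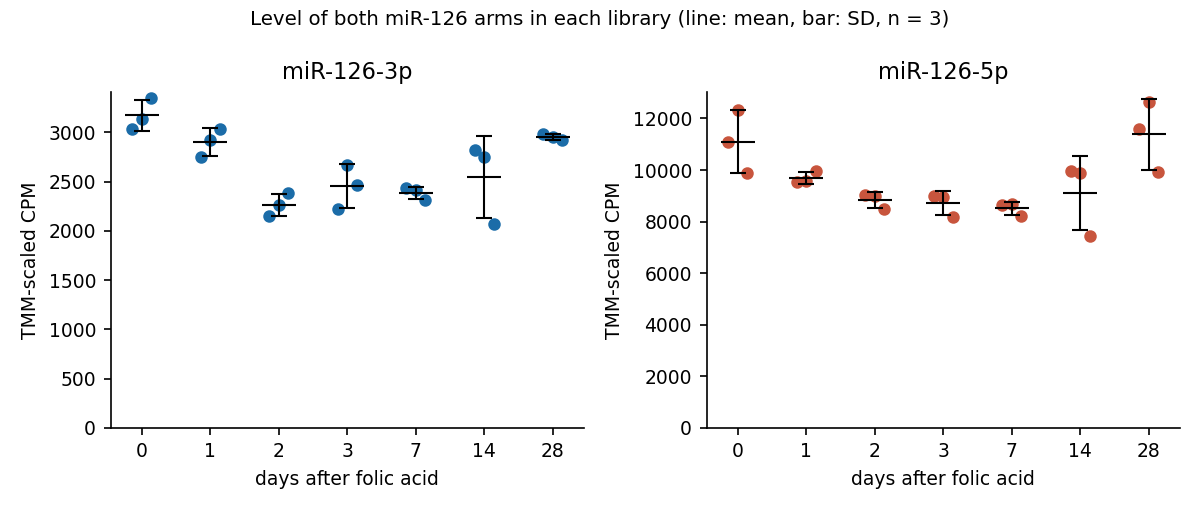
Level of miR-126-3p and miR-126-5p in TMM-scaled CPM (vertical axes, from 0) by day after folic acid; points are libraries, horizontal lines means and bars SD of 3 libraries. Both arms were lowest between days 2 and 7, and day 14 replicate 3 lay below the other day 14 libraries for both arms.

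In TMM-scaled CPM, 17.4% of all miRNAs tested had all 3 libraries of day 1 below all 3 of day 0. The share was 26.0% for day 2, 25.1% for day 3, 27.4% for day 7, 20.2% for day 14 and 12.1% for day 28. On that scale miR-126-3p was among them on each of these days and miR-126-5p on days 2, 3 and 7. In deposited CPM, all 3 libraries of miR-126-3p lay below day 0 on days 2, 7, 14 and 28, but 0 of 3 on day 1 and 2 of 3 on day 3. There miR-126-5p had all 3 below on days 7 and 14, 1 of 3 on day 2 and 2 of 3 on day 3. The share of all miRNAs tested was not computed in deposited CPM, and the shares above do not apply to these counts. Ordered by mean scaled CPM, day 0 was highest for miR-126-3p, then days 28, 1, 14, 3, 7 and 2. For miR-126-5p the order was days 28, 0, 1, 14, 2, 3 and 7. Neighbours in these orders overlapped in their libraries in 5 of 6 pairs for the 3p arm and in 6 of 6 pairs for the 5p arm. The pair that did not overlap was day 0 and day 28 of the 3p arm. In deposited CPM all 6 pairs overlapped for either arm, and the order of the 3p arm was days 0, 1, 3, 28, 14, 2 and 7. The order within the low stretch from day 2 to day 7 is therefore not resolved by these libraries.

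The course as a whole passed for both arms in the F test of limma over the 7 days, with adjusted p = 0.00183 for miR-126-3p and 0.00789 for miR-126-5p, beside 63.1% of all miRNAs. Neither arm passed with library totals (adjusted p = 0.0522 and 0.102), nor with totals counted without miR-21 (0.108 and 0.25). Day 28 against day 7 asks whether the levels had risen again, and uses no day 0 library. Both arms were higher on day 28, miR-126-5p by 0.41 (SE 0.11, limma adjusted p = 0.00601) and miR-126-3p by 0.31 (SE 0.10, adjusted p = 0.0245), where 16.5% of miRNAs were called higher. With library totals neither call held (0.22, adjusted p = 0.0662, for 5p and 0.12, adjusted p = 0.389, for 3p), and with totals counted without miR-21 the values were 0.13 and 0.03. Without day 7 replicate 1 or 2, or day 28 replicate 1 or 2, the 3p call was lost (0.28 to 0.31, adjusted p from 0.0569 to 0.0869), and the 5p call ended without day 28 replicate 2 (0.33, adjusted p = 0.0629). The mean of days 7, 14 and 28 did not pass against that of days 1, 2 and 3 for either arm (0.05, 95% interval -0.07 to 0.17, for miR-126-3p and 0.08, 95% interval -0.06 to 0.21, for miR-126-5p, limma adjusted p = 0.556 and 0.391), where 36.9% of miRNAs were called.

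The arms come from the same precursor, and their ratio within a library does not depend on scaling. The 5p arm gave 78.5%, 79.7% and 74.7% of the reads of both arms in the day 0 libraries, with 95% Wilson intervals of 78.2% to 78.9%, 79.4% to 80.0% and 74.4% to 75.1% that cover counting error only. The ratio of 5p to 3p reads ran from 2.96 (day 0 replicate 3) to 4.29 (day 28 replicate 2) over all libraries. Its geometric mean was 3.49 at day 0 and 3.34 at day 1, stood at 3.90 at day 2, and was 3.56, 3.57 and 3.58 for days 3, 7 and 14 and 3.84 at day 28. The libraries of days 0, 3 and 28 varied most, while those of days 7 and 14 lay between 3.53 and 3.60.

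The log2 ratio was 1.86 ± 0.12 over the later days (SD, n = 18) and 1.8 ± 0.21 on day 0 (SD, n = 3). The difference of 0.06 was smaller than either spread (exact permutation test over 1330 splits, two-sided, p = 0.502, adjusted p = 0.656 over 2 tests). Late days (1.87 ± 0.10, SD, n = 9) and early days (1.85 ± 0.14, SD, n = 9) differed by 0.03 (exact permutation test over 48620 splits, two-sided, p = 0.656, adjusted p = 0.656). For a single day, 3 libraries against 3 cannot reach 0.05 in such a test, and none was run.

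**Figure D2:**
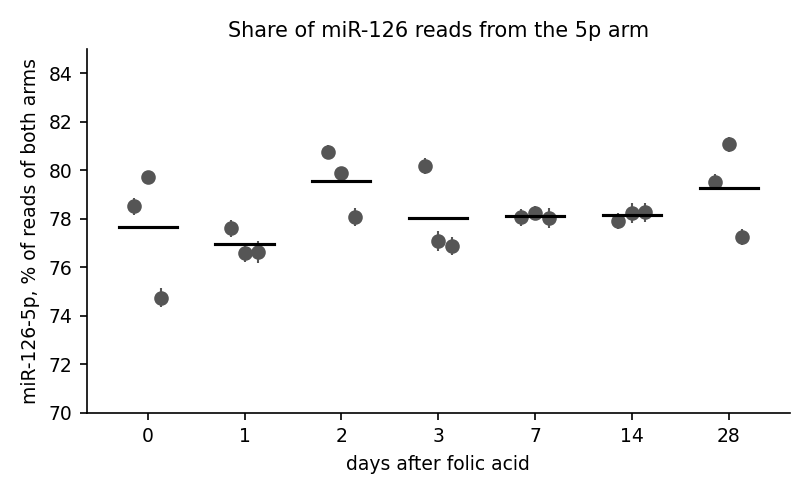
Share of miR-126 reads that came from the 5p arm (vertical axis, percent, shown from 70 to 85) by day after folic acid; points are libraries with 95% Wilson intervals, lines are means of 3 libraries. The spread between libraries of a day exceeds the counting error, from 74.7% in day 0 replicate 3 to 81.1% in day 28 replicate 2.

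Set beside other precursors, the miR-126 arms kept a steady ratio. In the 88 hairpins with both arms tested and at a mean of at least 10 CPM, the SD of the log2 ratio over the 21 libraries had a median of 0.27. For miR-126 it was 0.13, the smallest of the 88, followed by 0.136 for miR-10a. The means by day differed by at most 0.22 for miR-126, rank 6 from the smallest of the 88, beside a median of 0.49. The miR-126 arms were also closer in level than most, with a mean log2 ratio of 1.85 beside a median absolute log2 ratio of 4.21. Scarce arms carry more counting error, and the scarcer arm of miR-126 was more abundant than that of any other of the 88. The log2 of its mean CPM was 11.4, beside 10.5 for miR-30a, the next. These ranks are therefore a description and not a test.

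**Figure D3:**
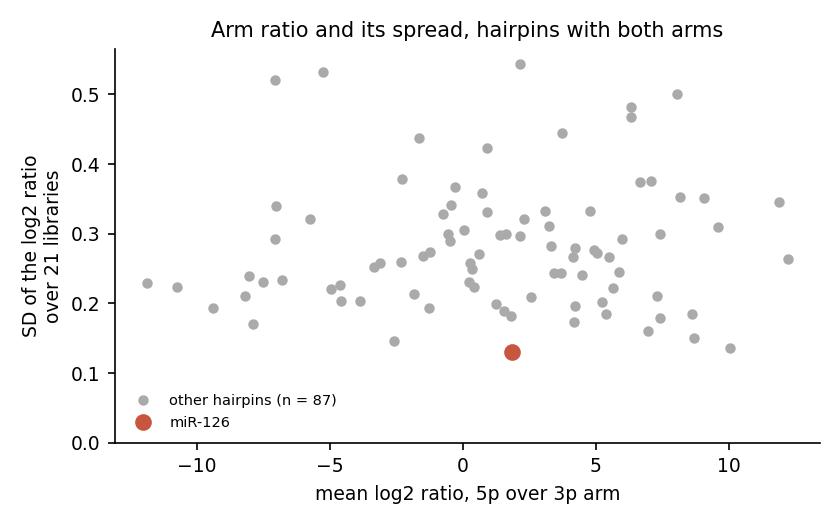
Mean log2 ratio of 5p to 3p arm (horizontal axis) against its SD over 21 libraries (vertical axis) for 88 hairpins with both arms at a mean of at least 10 CPM; each point is a hairpin. miR-126, in red, has the lowest SD, 0.13.

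Over the 21 libraries the scaled levels of the arms moved together (Pearson's r = 0.781, permutation p = 2e-05, Spearman's rho = 0.808, permutation p = 4e-05, adjusted p = 8e-05 for each over 4 values). Without the 2 libraries farthest from the median of miR-126-3p, r was 0.754. With the mean of each day removed, r was 0.479 (permutation p = 0.0302, adjusted p = 0.0403) and rho 0.239 (permutation p = 0.294). Both arms share a library and its scaling factor, and on CPM by library totals r was 0.529 over all libraries and 0.171 with day means removed.

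The size of the fall depended on how libraries were scaled. miR-21, a miRNA known to rise in injured tubules, took 1.41% ± 0.15 of the reads at day 0 and 8.53% ± 0.57 on day 2 (SD, n = 3 each), for both of its arms. Together the miR-126 arms took between 1.28% and 1.40% of reads at day 0, between 1.18% and 1.24% on day 2 and between 1.05% and 1.17% on day 7. Relative to TMM, library totals raised the median difference from day 0 of all miRNAs by 0.19 on day 2, 0.18 on day 3 and 0.11 on day 7. On that scale the 3p arm was still called lower on days 2 (-0.29, adjusted p = 0.0234), 7 (-0.30, adjusted p = 0.016) and 14 (-0.28, adjusted p = 0.0272), and the 5p arm on days 7 (-0.27, adjusted p = 0.018) and 14 (-0.25, adjusted p = 0.0329), in limma. The 3p arm on day 3 (-0.19, adjusted p = 0.133) and the 5p arm on days 2 (-0.13, adjusted p = 0.279) and 3 (-0.16, adjusted p = 0.17) were not. With totals counted without miR-21, which raised the median by 0.29 on day 2, no day passed for either arm, and the 3p arm stood at -0.18 and the 5p arm at -0.02 on day 2. RLE and upper-quartile scaling gave falls at least as large as TMM from day 2 to day 14.

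**Figure D4:**
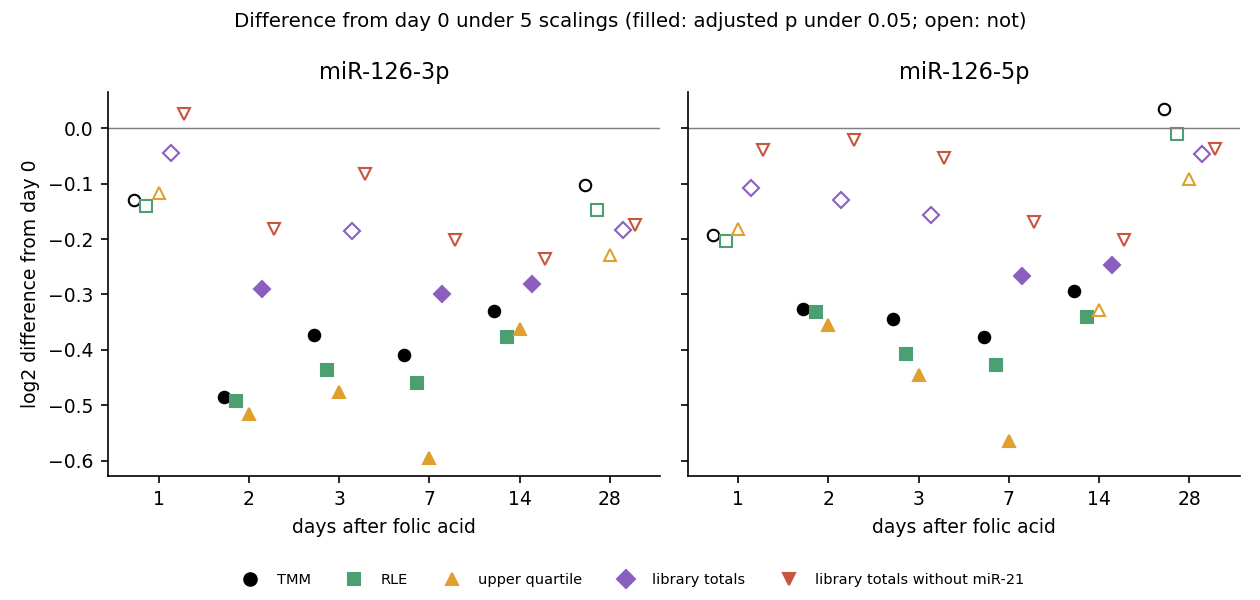
Difference from day 0 on the log2 scale (vertical axes) of miR-126-3p and miR-126-5p by day under 5 scalings of the libraries; filled symbols have adjusted p under 0.05 in limma. TMM, RLE and upper-quartile values lie between -0.29 and -0.60 from day 2 to day 14, and values by library totals lie closer to 0.

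Other miRNAs known from endothelium or from control of vessel growth moved in both directions. Of 13 tested members of that list, 6 rose and 2 fell on day 2 (median 0.02) and 6 rose and 1 fell on day 7 (median 0.06). Of all 431 miRNAs, 105 were higher (24.4%) and 82 lower on day 2 (median 0.02) and 128 higher (29.7%) and 98 lower on day 7 (median 0.07). With library totals these splits were 143 and 47 on day 2 and 138 and 75 on day 7, and 6 list members rose and none fell on either day. With upper-quartile scaling 102 miRNAs were higher and 124 lower on day 7, and the list's medians turned to -0.005 on day 2 and -0.13 on day 7.

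miR-92a-3p, a member of the miR-17 cluster that limits vessel growth, rose by 1.16 on day 2, from 5287 ± 484 scaled CPM at day 0 (SD, n = 3). miR-132-3p, known to promote vessel growth, rose by 2.38, and miR-221-3p by 0.61. miR-23a-3p rose by 0.49 and miR-23b-3p by 0.59. miR-296-5p rose by 1.17, but stood near the floor at day 0 (0.15 ± 0.14 scaled CPM, SD, n = 3). The members that fell on day 2 were miR-218-5p (-0.39), which represses Robo receptors, and miR-27b-3p (-0.21). miR-218-5p was the one that fell on day 7 (-0.34). miR-218-5p was not called on either day with library totals (adjusted p = 0.234 and 0.14), and miR-27b-3p on day 2 was not called with them (-0.02, adjusted p = 0.901) and lost its call without day 0 replicate 2 or day 2 replicate 1 or 3 (adjusted p from 0.0916 to 0.156). That call was also lost without a filter on low values (adjusted p = 0.111) and in a fit of only days 0 and 2 (adjusted p = 0.113). Without day 2 replicate 3 the day 2 call of miR-218-5p was lost (adjusted p = 0.0549), as was its day 7 call without day 7 replicate 1 or 3 (0.0863 and 0.0511). Most of these miRNAs are also made by other kidney cells. The list also named miR-24-3p, for which no row had that exact name. The arms of a hairpin named miR-24-2 were among the miRNAs tested and were not counted in the list.

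Mural cells wrap the endothelium. Of the 4 listed miRNAs known from them, none passed on day 2 in limma (0 at an unadjusted p under 0.05 in limma and 0 called in edgeR), with the smooth muscle miR-143-3p at -0.20 (adjusted p = 0.139). Without day 0 replicate 3, miR-143-3p was called lower on day 2 (-0.36, adjusted p = 0.0131). On day 7 only miR-145-3p of the 4 was called (-0.43), and that call was lost with library totals (-0.32, adjusted p = 0.13) and without day 0 replicate 3 or day 7 replicate 1 or 2 (adjusted p from 0.0674 to 0.126). In a fit of only days 0 and 7 its adjusted p was 0.0511. The summed level of the mural list ran from 62470 to 80650 scaled CPM at day 0, from 57370 to 69690 on day 2 and from 64700 to 79030 on day 7. The list's median was -0.15 on day 2, and turned to 0.04 with library totals, where 1 member was called higher. On day 7 it was 0.13, and turned to -0.05 with upper-quartile scaling.

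Members of the lists for blood and tubule were also called. Of all 431 miRNAs, 24.4% were higher and 19.0% lower on day 2, and 29.7% were higher and 22.7% lower on day 7. Of 4 erythroid miRNAs, which mark red cells left in the tissue, 3 were higher on day 2 (median 1.43) and none was called on day 7 (median -0.83, 0 at an unadjusted p under 0.05 in limma and 0 called in edgeR). Their summed level ran from 1294 to 3378 scaled CPM at day 0, from 4732 to 9596 on day 2 and from 766.3 to 2380 on day 7. On days 3 and 14, 2 of the 4 were lower (medians -1.10 and -1.31), beside 19.0% and 17.9% of all miRNAs. In edgeR 1 of the 4 was called on day 14, and with library totals 1 was lower on day 3. Of 8 leukocyte miRNAs, 6 were higher and 1 lower on day 2 (median 0.77) and 6 higher on day 7 (median 1.89), with the myeloid miR-223-3p at 2.06 and 2.45. The one lower was miR-150-5p of lymphocytes (-0.66), and with library totals none was lower. On day 1, 5 of 8 leukocyte miRNAs were higher (median 0.57), beside 61 of all 431. On day 28, 6 of 8 were higher (median 1.00), beside 11.1% of all. In edgeR 4 of the 8 were called on day 1 and 4 on day 28. With library totals 4 were higher on day 28. The summed level of the leukocyte list ran from 938.7 to 1237 scaled CPM at day 0 and from 2295 to 3357 on day 7. Of 10 tested tubular miRNAs, 7 were lower on day 2 (median -0.65) and 7 lower and 1 higher on day 7 (median -0.64), with miR-192-5p at -0.78 and -0.87. With library totals 7 were lower and 2 higher on day 2. On day 1, 5 of 10 were lower (median -0.34), beside 11.1% of all miRNAs. The tubular sum ran from 245800 to 272600 scaled CPM at day 0, from 148400 to 163400 on day 2 and from 215100 to 237800 on day 28. On day 28 no tubular miRNA was called lower and 1 higher, beside 11.1% of all (with library totals 1 lower and none higher). Of the markers set as defining these cells, miR-451, miR-144-3p, miR-486-5p, miR-142-3p, miR-223-3p, miR-192-5p and miR-30a-5p were above 0 in all libraries. The list name miR-194-5p had no row of that exact name. A row named miR-194-2-5p, at -0.675 on day 2 and -0.705 on day 7, was not counted in the list. The part of these cells in the fall of miR-126 was not tested, and in whole kidney fewer endothelial cells and less miR-126 per cell cannot be told apart. All these comparisons share the 3 day 0 libraries.

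**Figure D5:**
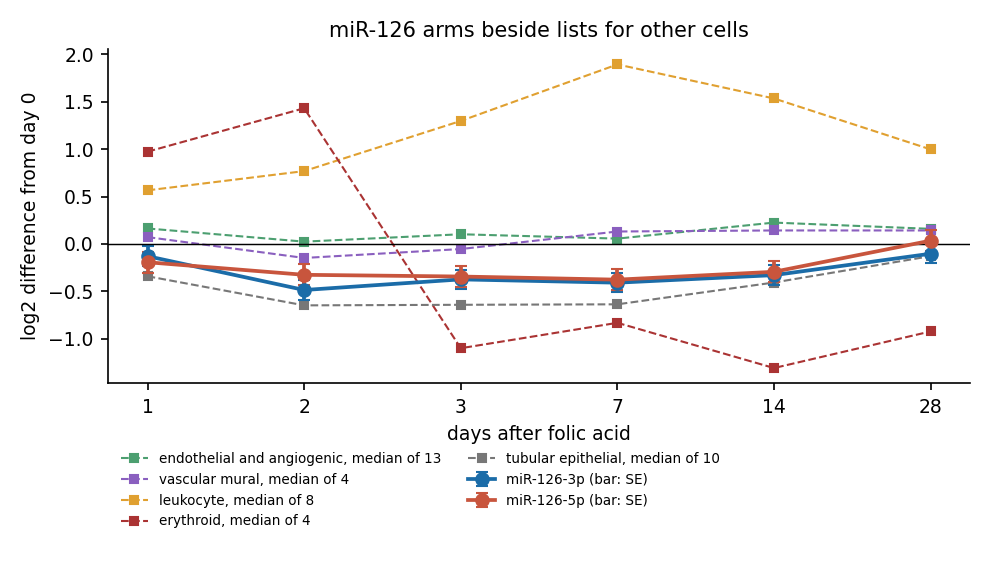
Difference from day 0 on the log2(CPM + 1) scale (vertical axis) by day for both miR-126 arms (circles, bars SE) and the median of tested members of 5 lists (squares). The miR-126 arms lie between the tubular median and the endothelial and angiogenic median from day 1 to day 14.

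The miRNAs most like miR-126-3p, by Pearson's r of the log2(CPM + 1) level over 21 libraries among 292 miRNAs at a mean of at least 10 CPM, were miR-190-5p (0.897), miR-203-3p (0.896), miR-30c-5p (0.873), miR-30e-5p (0.858) and miR-20b-5p (0.858). Those most like miR-126-5p were miR-30a-5p (0.895), miR-194-2-5p (0.875), miR-203-3p (0.872), miR-26b-5p (0.85) and miR-363-3p (0.841). miR-190-5p and the miR-30 members are in the tubular list. miR-194-2-5p was not counted there, as that list named miR-194-5p. The other arm of miR-126 itself came at rank 21 for the 3p arm and rank 16 for the 5p arm. Farthest from miR-126-3p were miR-25-3p (-0.905), miR-106b-3p (-0.853) and let-7e-5p (-0.852), and farthest from miR-126-5p were miR-99b-3p (-0.868), miR-1249-3p (-0.854) and let-7i-5p (-0.832). All values share libraries and scaling factors and are given as a description. miR-203-3p stood at -0.94 against day 0 on day 2 and at -1.0 on day 7, and miR-26b-5p at -0.29 and -0.39. The day 2 call of miR-26b-5p was lost with library totals (-0.09, adjusted p = 0.475).

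Day 14 replicate 3 stood apart for both arms. It held 2068.66 scaled CPM of miR-126-3p and 7452.69 of miR-126-5p, and miR-21 took 6.28% of its reads, beside 3.83% and 3.28% in replicates 1 and 2. Part of this gap came from scaling, as its TMM factor was 1.068, beside 0.9251 and 0.9505 in replicates 1 and 2. In deposited CPM it held 2210.36 of miR-126-3p, beside 2608.94 and 2614.75. For miR-126-5p it held 7963.18, beside 9205.8 and 9409.06. Its ratio of 5p to 3p reads, 3.60, was that of the other day 14 libraries (3.53 and 3.60).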

How the data were processed

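The members and all lists were chosen with earlier results of these data known. The authors deposited 1 table of CPM for mature miRNAs, made per the submitters' processing notes with CASAVA 1.8 and mouse build mm9. The aligner, the counter and the version of miRBase are not stated in those sources. Every value was a whole multiple of the CPM of 1 read (100% within 0.05 of a read, largest distance 0.035), which gave whole reads back.

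filterByExpr (edgeR 4.0.16, minimum count 10) kept 431 miRNAs, TMM factors were computed on their CPM, and limma 3.58.1 in R 4.3.3 (trend, a mean for each day, all 21 libraries) was run on log2(CPM + 1). This scale understates changes of scarce miRNAs. Calls have a Benjamini-Hochberg adjusted p under 0.05 over all 431. The edgeR quasi-likelihood count test on the recovered reads called 105 miRNAs for day 1 against day 0, and 193, 211, 225, 184 and 52 for the later days in order. limma called 109, 187, 213, 226, 185 and 56. Early days were 1, 2 and 3 and late days 7, 14 and 28. The fit was also run on simulated reads with as many rises as falls, which does not test the choice of scaling.

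Arm ratios were compared with exact permutation tests in SciPy 1.17.1, and the correlation of the arms was tested with 100000 permutations. The smallest permutation p obtained for the correlation was 2e-05. Wilson intervals of the arm share cover counting error only. The intervals given with limma differences come from the limma fit and reflect the spread between libraries. Libraries of a day all differed beyond sampling noise. The miRNAs named beside miR-126 were the 5 most and 3 least alike by Pearson's r, members of the lists and miR-21. Hairpins were folded with RNAfold 2.7.2. Alternatives were other scalings, filters, pseudocounts and tools (DESeq2 1.42.0 on the recovered reads), a replicate term, fits of only the days compared, and leaving out each library.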

Additional observations from a re-analysis of the deposited data

How the results depend on the processing

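edgeR, robust empirical Bayes and pseudocounts of 0.5 and 10 CPM changed no direction and no call among the 49 results each was run on. Under upper-quartile scaling miR-126-5p on day 14 lost its call (-0.328, adjusted p = 0.0547), and signs turned for miR-126-5p on day 28 (-0.091) and miR-126-3p late against early (-0.026), neither called before. miR-126-5p on day 28 turned also with RLE (-0.011) and DESeq2 (-0.006).

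Library totals ended the calls of miR-126-3p on day 3 (-0.186) and of miR-126-5p on days 2 (-0.129) and 3 (-0.156), of day 28 against day 7 (0.115 for 3p, 0.22 for 5p) and of the F test (adjusted p = 0.0522 and 0.102). They turned miR-126-5p on day 28 (-0.047), late against early (-0.081 for 3p, -0.055 for 5p) and miR-143-3p on day 7 (0.08). With miR-21 also left out of the totals, calls ended for 3p on days 2, 3, 7 and 14 (-0.181, -0.083, -0.202, -0.236), for 5p on the same days (-0.021, -0.053, -0.17, -0.201), for day 28 against day 7 (0.027 and 0.132) and for the F test (adjusted p = 0.108 and 0.25). Signs turned for 3p on day 1 (0.025), 5p on day 28 (-0.037), late against early (-0.124 and -0.098), miR-27b-3p on days 2 and 7 (0.091 and 0.023), miR-143-3p on days 2 and 7 (0.103 and 0.177), and on day 2 miR-145-3p (0.016) and miR-26b-5p (0.017). The cause was not tested.

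Without a filter 5p lost its calls on day 2 (-0.346, adjusted p = 0.0535) and day 14 (-0.311, adjusted p = 0.0876), and miR-27b-3p its call on day 2 (-0.234, adjusted p = 0.111). Fitted on only the days compared, day 14 was lost for both arms (-0.347 for 3p, -0.311 for 5p), as were miR-27b-3p on day 2 (adjusted p = 0.113) and miR-145-3p and miR-221-3p on day 7 (0.0511 and 0.0516). That fit could not be made for the F test. The difference of arm ratios between later days and day 0 was -0.038 with medians of libraries. The correlation of the arms was 0.529 with library totals and 0.479 with day means removed.

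With a replicate block no call changed among 51 results (on day 2 miR-126-3p at -0.486, adjusted p = 0.00109, and miR-126-5p at -0.326, adjusted p = 0.00826). No pairing of libraries by replicate number was seen, which does not exclude it. Of 63 same-numbered pairs, 15 had deviations correlated above 0.1, the median was -0.019, and 6 of 21 libraries correlated best with their own number.

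Leaving out each library, miR-126-3p ran from -0.174 to -0.11 on day 1, -0.531 to -0.459 on day 2, -0.472 to -0.282 on day 3, -0.453 to -0.405 on day 7, -0.411 to -0.201 on day 14 and -0.159 to -0.079 on day 28, from 0.015 to 0.108 late against early and from 0.283 to 0.352 for day 28 against day 7, with the F test from 7.67e-05 to 0.0104. miR-126-5p ran from -0.322 to -0.116, -0.453 to -0.249, -0.503 to -0.272, -0.513 to -0.309, -0.419 to -0.171 and -0.08 to 0.147 on those days, from 0.04 to 0.133 and from 0.334 to 0.546, with the F test from 0.00285 to 0.0441. The log2 arm ratio ran from -0.064 to 0.141 for later days against day 0 and from -0.002 to 0.054 late against early. miR-143-3p on day 7 ran from -0.2 to 0.064, and was above 0 without day 0 replicate 1 or 2 or day 7 replicate 1. The count called on day 28 ran from 37 (without day 28 replicate 1) to 58. Depth does not limit the arms, with at least 8118 reads per library, and 3 libraries a day limit the precision.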
